A study of Danio rerio with 4 samples.

Results

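The genes described here are homeobox transcription factor genes that place the dorsal, ventral and mesendodermal parts of the early zebrafish embryo: noto, irx7, vox, vent, ved, gsc, mixl1, vsx1 and dharma. They were chosen by name, by pairing the Ensembl gene ID of each row with its zebrafish symbol, case ignored. Of the 9 names, 6 were matched to a row among 27205 genes listed in all. The IDs paired with vox, vent and ved matched no row, so these 3 ventral genes were not analysed here, and the ventral side of the axis is not covered by what follows.

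Homeobox genes encode DNA-binding proteins with a shared fold, the homeodomain. In the zebrafish blastula, maternal beta-catenin on the future dorsal side switches on dharma (also known as bozozok), whose protein helps to set up the organizer, and gsc (goosecoid) encodes a transcriptional repressor made in the organizer. The products of vox, vent and ved hold organizer genes back on the ventral side. Nodal signals at the margin act through mixl1 (also known as bonnie and clyde) on the way to endoderm, and noto (floating head) is needed for the notochord. Most of these genes are known to be transcribed from the embryo's own genome, which is silent at first and starts to be read at the blastula stage.

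The RNA came from zebrafish embryos of wild-type genotype that had all received mRNA for FLAG-tagged Ddx3xb, a DEAD-box RNA helicase, and was recovered from their lysate on anti-FLAG beads. The labels give 2 groups, embryos at 2 and at 4 hours post-fertilization (hpf), each with 2 biological replicates, so 4 samples. Their descriptions also carry the word control without saying what it refers to. Both groups carry the injected mRNA, and no uninjected, mock or input sample was analysed here, so each value is a level in the precipitate and not an enrichment over the RNA of the embryo.

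The deposited values were RPKM, read numbers divided by gene length and by the size of the library, as the authors' mean per gene and age. A single mean per age leaves no SD and no n behind any value, so no difference could be tested and no p-value is given. The tables listed 25804 genes (2 hpf) and 24904 genes (4 hpf). Absolute depth is unknown, but the low values keep a trace of whole reads: among 5253 genes under 0.3 RPKM in both tables, 10.1% had a ratio between the tables equal, within a relative 0.0003, to that of 1 read in 1 library of each age. From these ratios, 1 read in the shallower library was worth 2.08 times as much as 1 read in the deeper library at 2 hpf, and 1.90 times at 4 hpf, so the replicates behind each mean differed in depth by about those factors. Which replicate was the deeper one cannot be read from the means.

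Directions between the ages rest on the labels of the tables. Of the 6 axis genes matched, 5 had the higher value in the table labelled 2 hpf, an age before the main activation of the genome that reads them. For 1 of the 5, dharma, the values may rest on 3 reads in all. Of the 13341 genes that reached 1 RPKM in one table or the other, at most 29.7% were higher in the table labelled 2 hpf, with RPKM as deposited. That share leaves out genes under 1 RPKM, such as vsx1 and dharma, and it changes with the scaling. Over all 27205 genes the median difference of log2(RPKM + 1), 4 hpf minus 2 hpf, was only 0.05. With the median ratio made equal it was -0.08 over the 13341 genes, so most of them were then higher in the table labelled 2 hpf. The tables are called the 2 hpf table and the 4 hpf table below only after their labels. An exchange of the tables would reverse every direction given here, for these genes and for the germ plasm genes that ran the other way, and whether one took place was not tested.

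The notochord gene noto had the highest level of the axis genes in the 2 hpf table. Its level was 125 RPKM there (ENSDARG00000021201, rank 103 of all genes) and 9.21 RPKM in the 4 hpf table (rank 4472). This was a 13.6-fold higher level in the former, a difference of -3.63 in log2(RPKM + 1), 4 hpf minus 2 hpf. Of the 13341 genes that reached 1 RPKM in one table or the other, 32 had a difference as low as that of noto or lower, or 0.240%. Among the 340 genes at 50 RPKM or more in the 2 hpf table, 9 did. In a bulk precipitate without input, fewer cells that express a gene, less of its RNA per cell and less of it recovered with Ddx3xb cannot be told apart.

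The Iroquois gene irx7, which encodes a homeodomain protein with a role in the zebrafish midbrain and hindbrain, was next. It stood at 62.1 RPKM in the 2 hpf table (ENSDARG00000002601, rank 251) and at 28.0 RPKM in the 4 hpf table (rank 1724). The ratio was 2.22 and the difference -1.12, a gap much smaller than that of noto. Of all genes compared, 9.14% had a difference as low or lower. Among the 340 genes at 50 RPKM or more in the 2 hpf table, 50 did, or 14.7%. With noto low in the 4 hpf table, irx7 was the highest of the axis genes there.

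The mesendoderm gene mixl1 was at 3.99 RPKM in the 2 hpf table (ENSDARG00000069252) and at 0.486 RPKM in the 4 hpf table. Its level was 8.20 times higher in the former, with a difference of -1.75 that is damped by the added 1 RPKM. With an added 5 RPKM in place of 1 the difference was -0.71, inside the 2-fold mark, and with an added 0.1 RPKM it was -2.80. Because mixl1 was under 1 RPKM in the 4 hpf table, it entered the comparison by its value in the 2 hpf table alone.

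The organizer gene gsc was at 3.16 RPKM in the 2 hpf table (ENSDARG00000059073) and at 1.22 RPKM in the 4 hpf table. The ratio of 2.59 was above that of irx7, but on the log2(RPKM + 1) scale the difference was -0.90 and missed the 2-fold mark. It passed that mark with an added 0.1 RPKM in place of 1, at -1.30, and under 3 of the 4 other scalings of the tables. It missed the mark with an added 5 RPKM, at -0.39, and with the sums made equal, at -0.67.

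Both remaining genes were near the floor of the tables. The paired-type gene vsx1, known for its role in the retina and in early axial tissue, was at 0.477 RPKM in the 2 hpf table (ENSDARG00000056292) and at 0.612 RPKM in the 4 hpf table. It was the only axis gene of the 6 with the higher value in the 4 hpf table, by 1.28 times with RPKM as deposited. Its difference of 0.13 in log2(RPKM + 1) lay below the median of 0.66 over the genes compared. Its direction was not computed under other scalings of the tables and does not hold under all of them. With the median ratio made equal, where 1 factor multiplies the 4 hpf table, the maternal gene pou5f3 went from -0.06 to -1.07. That shift is larger than the 1.28-fold gap of vsx1, so the direction of vsx1 would reverse there. The organizer inducer dharma was at 0.257 RPKM in the 2 hpf table (ENSDARG00000040955) and at 0.0866 RPKM in the 4 hpf table. The smallest whole reads that give the ratio of these values, within a relative 0.0001, were 2 reads in the former and 1 read in the latter, and larger counts in the same proportion would give it too. A ratio of 2.97 that may rest on 3 reads says nothing about a change in dharma.

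Genes of the hox clusters, which pattern the body axis at later stages, give a scale for that floor. This reference was added after the values of the axis genes had been seen. None of 38 hox genes reached 1 RPKM in either table, with medians of 0.116 RPKM (2 hpf) and 0.102 RPKM (4 hpf) and highest values of 0.453 and 0.480 RPKM. The level of dharma lay within that range in both tables, above 31 of the 38 hox genes at 2 hpf and above 17 at 4 hpf. The levels of vsx1 were just above the highest hox gene in both tables, as was that of mixl1 in the 4 hpf table. Both values of noto, irx7 and gsc were more than 2 times the highest hox gene.

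**Figure D1:**
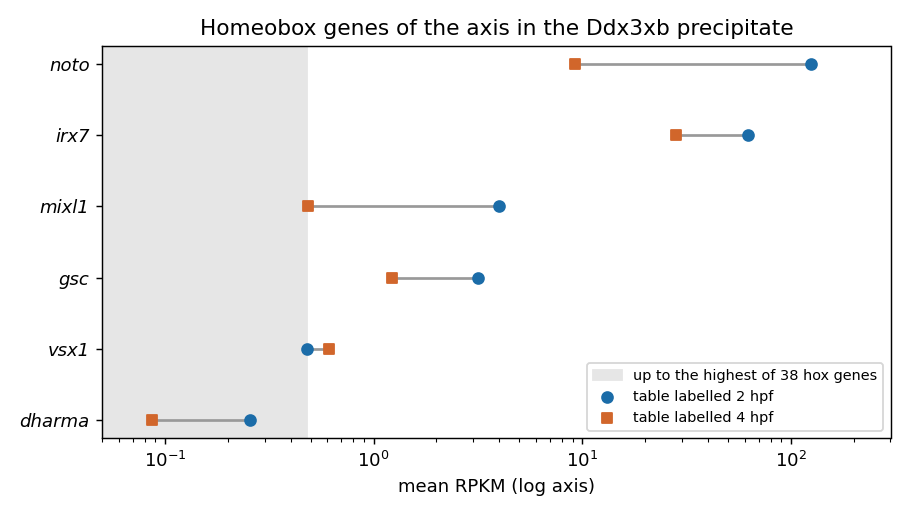
Mean RPKM of the 6 matched axis homeobox genes (log axis) in the 2 hpf table (circles) and the 4 hpf table (squares), joined by a line per gene, with no error because each point is a single deposited mean. The circle lies to the right for every gene but vsx1, the longest line is that of noto (125 to 9.21 RPKM), and the grey band up to the highest of 38 hox genes (0.480 RPKM) holds both points of dharma.

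The order of the axis genes differed between the tables. In the 2 hpf table it ran noto, irx7, mixl1, gsc, vsx1 and dharma, from 125 to 0.257 RPKM. In the 4 hpf table it ran irx7, noto, gsc, vsx1, mixl1 and dharma, from 28.0 to 0.0866 RPKM. Without replicate values it cannot be said which neighbours in either order differ beyond their spread.

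Ratios of levels within 1 table do not change when 1 factor scales a whole table, though they can under quantile normalization. Taken from the same deposited values, they show the same re-ordering. The level of noto was 2.01 times that of irx7 in the 2 hpf table and 0.329 times that of irx7 in the 4 hpf table. Mesendodermal mixl1 went from 1.26 times the level of gsc to 0.398 times. Set against pou5f3, the maternal POU homeobox gene that helps to open the embryo's genome, irx7 was at 1.001 times its level and then at 0.471 times, and noto was at 2.01 times and then at 0.155 times. The level of irx7 over gsc was nearly the same in both tables, at 19.7 and 22.9. These ratios per length show unequal differences between genes and not that any one of them was unchanged.

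Of the 6 matched genes, 4 passed the filter of 1 RPKM in either table, and noto, irx7 and mixl1 were called at least 2-fold lower in the 4 hpf table. Among all 13341 genes compared, 10.9% were called lower, 33.0% were called higher, and the median difference was 0.66. None of the axis genes was called higher. All 4 lay at least 2-fold below that median, as did 21.2% of all genes. The median over the 4 was -1.43, and -1.01 over the 6 with no filter, against 0.05 over all listed genes. As mixl1 passed through the table where it was higher, these counts describe the members and support nothing on their own.

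The balance over all genes followed the scaling. Higher genes made up 75.2% of those past 2-fold with RPKM as deposited, 84.7% with the sums made equal, 39.7% after quantile normalization, 28.3% with the sums made equal without the 100 highest genes, and 12.05% with the median ratio made equal. The differences of noto, irx7, mixl1 and gsc were below 0 under all of these scalings. That of noto ran from -4.52 to -3.25, and that of irx7 from -2.10 to -0.73, where the equal sum took irx7 inside the 2-fold mark.

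**Figure D2:**
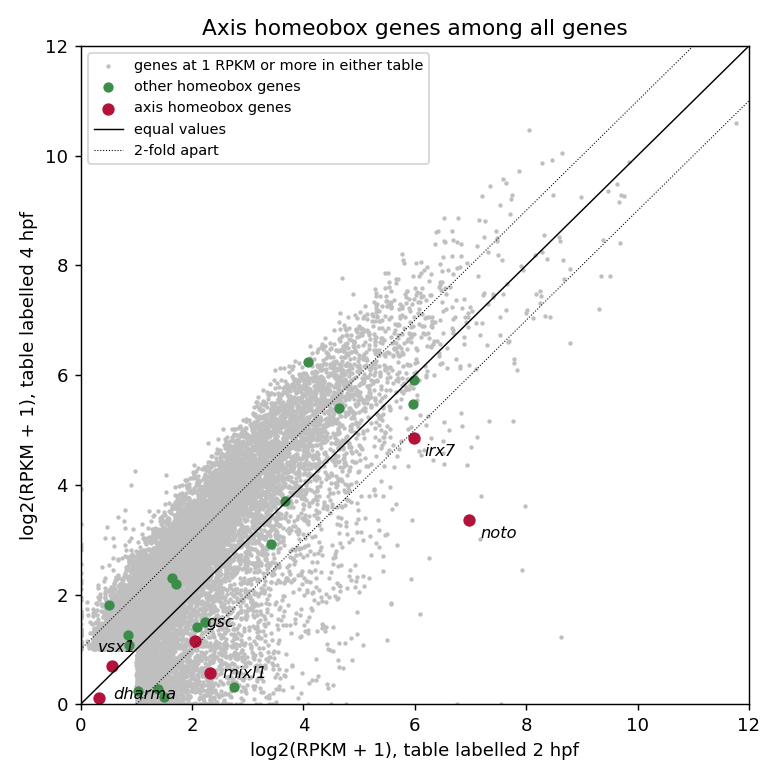
log2(RPKM + 1) of the genes that reached 1 RPKM in one table or the other (grey), the other homeobox genes among them (green) and the 6 axis homeobox genes (red, vsx1 and dharma included though under 1 RPKM), with the 2 hpf table on the x axis and the 4 hpf table on the y axis. Axes end at 12, which leaves out the highest 11 genes, and noto lies farthest of the red points below the line of equal values while irx7 lies just past the 2-fold line.

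The genes whose pair of values came nearest to that of noto, by distance in log2(RPKM + 1) over the 2 tables, were HSPB1, akap12b and TRA2A. HSPB1, which encodes a small heat shock protein, had 144 RPKM (2 hpf) and 7.11 RPKM (4 hpf), a distance of 0.39. The anchoring protein gene akap12b was at 91.5 and 19.7 RPKM, a distance of 1.11. The splicing factor gene TRA2A was at 79.1 and 20.9 RPKM, a distance of 1.28. With only 2 values per gene, such likeness says little.

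Other homeobox genes did not share one direction. Of 69 listed by name, 37 were matched by their exact symbol and 17 reached 1 RPKM in either table. Of these, 3 were at least 2-fold lower in the 4 hpf table, 2 at least 2-fold higher and 12 in between. Their median difference was -0.06, against 0.66 for all genes. It was 0.34 with the sums made equal, against 0.99 for all genes. Under the 3 other scalings it ran from -0.91 to -0.82, against -0.08 to 0.22 for all genes. Among all genes, 10.9% were called lower and 33.0% higher. The reference table gives some zebrafish genes a symbol without its final a or b, and a search by that shorter form, added after the data were seen, took in 20 more entries and gave 5 lower and 5 higher of 25. The maternal regulators pou5f3 (62.1 and 59.4 RPKM) and nanog (61.9 and 43.6 RPKM) stood beside irx7 in the 2 hpf table and were closer to level between the tables, with differences of -0.06 and -0.49. Over the 4 other scalings these ran from -1.07 to 0.34 for pou5f3 and from -1.49 to -0.10 for nanog, above noto and irx7 under each of them. Those called lower included mxtx1, a Mix-type gene of the yolk syncytial layer (5.77 and 0.244 RPKM), and sebox, a Mix-type gene known in zebrafish mesendoderm (1.81 and 0.10 RPKM). Those called higher were pbx4, the gene of a partner of Hox proteins (15.9 and 74.5 RPKM, a difference of 2.16), and zeb2a, a zinc finger and homeobox gene (0.423 and 2.53 RPKM). The name zeb2a was added after its value was seen, to complete the count of higher genes, and it fell inside the 2-fold mark under 2 of the other scalings (0.65 and 0.79). Among the 43 listed homeobox genes matched by exact symbol, noto had rank 1 by level in the 2 hpf table and rank 7 in the 4 hpf table. In the same set irx7 had ranks 2 and 5. These ranks leave out homeobox genes that were not listed, as well as the entries found by the shorter form. Of those entries, ADNP (19.5 RPKM) and ZHX2 (12.7 RPKM) stood above noto in the 4 hpf table.

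Genes that feed the axis, matched by exact symbol, gave counts near those of all genes, of which 10.9% were called lower and 33.0% higher. Their median lay below that of all genes. Of 22 listed genes of the maternal beta-catenin, Wnt, BMP, Nodal and Fgf inputs, 13 were matched by their exact symbol and 11 reached 1 RPKM in either table. Of these 11, 1 was called lower in the 4 hpf table, the ventral signal gene bmp7a, at 8.01 RPKM (2 hpf) and 1.33 RPKM (4 hpf). SMAD2, a transducer of Nodal signals (18.9 and 53.7 RPKM), WNT8A, a ventrolateral signal gene (3.47 and 8.15 RPKM), and the Wnt repressor gene tcf7l1b (7.89 and 16.8 RPKM) were called higher. All 3 kept that call with the sums made equal and lost it under the 3 other scalings, where their differences ran from 0.05 to 0.68. SMAD5, a transducer of BMP signals, was at 30.0 and 15.6 RPKM, a difference of -0.90. The median over the 11 was -0.31, against 0.66 over all genes. Of the 11, 4 lay at least 2-fold below that all-gene median, as did 21.2% of all genes. The median of the 11 was 0.03 with the sums made equal and from -0.94 to -0.81 under the 3 other scalings. With symbols that lack the final a or b taken in, 4 of 19 were called lower and 3 higher, with a median of 0.06. These shares were not near those of all genes. The lower entries so added were BMP2 (ENSDARG00000041430), at 17.7 and 3.37 RPKM, and FZD7 (ENSDARG00000060004), at 6.10 and 0.801 RPKM. With them came FGF8 (ENSDARG00000003399), a gene of a signal at the margin, at 4.31 and 0.527 RPKM. Their symbols do not say which zebrafish copy each is, and these names are an exception to the rule by which genes were named.

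Genes that act beside the axis homeobox genes in the organizer and at the margin were lower in the 4 hpf table in most cases. Of 26 listed, 13 were matched by their exact symbol and 9 reached 1 RPKM in either table, 4 of them through the 2 hpf table alone. Of the 9, 6 were called lower in the 4 hpf table and none higher, against 10.9% and 33.0% of all genes, with a median of -1.76. With symbols that lack the final a or b taken in, 12 of 15 were called lower and none higher, with a median of -1.56. Among the entries so added, CXCR4 (ENSDARG00000057633), GADD45B (ENSDARG00000027744) and SP5 (ENSDARG00000076571) also reached 1 RPKM in the 2 hpf table alone. The filter thus shaped both counts, and the larger one adds no support. The gap was wider than that of noto for tbx16, a T-box gene of the mesoderm, with 44.2 RPKM (2 hpf) and 1.25 RPKM (4 hpf). The BMP antagonist gene chrd was at 13.5 and 1.80 RPKM, and the endoderm gene GATA5 at 4.01 and 0.112 RPKM. The retinoic acid enzyme gene CYP26A1 was closer, at 34.7 and 19.3 RPKM, a difference of -0.81. Over the 13 matched genes with no filter, the median was also -0.81. Lists were chosen with earlier results of these data known, and no difference between lists was tested.

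**Figure D3:**
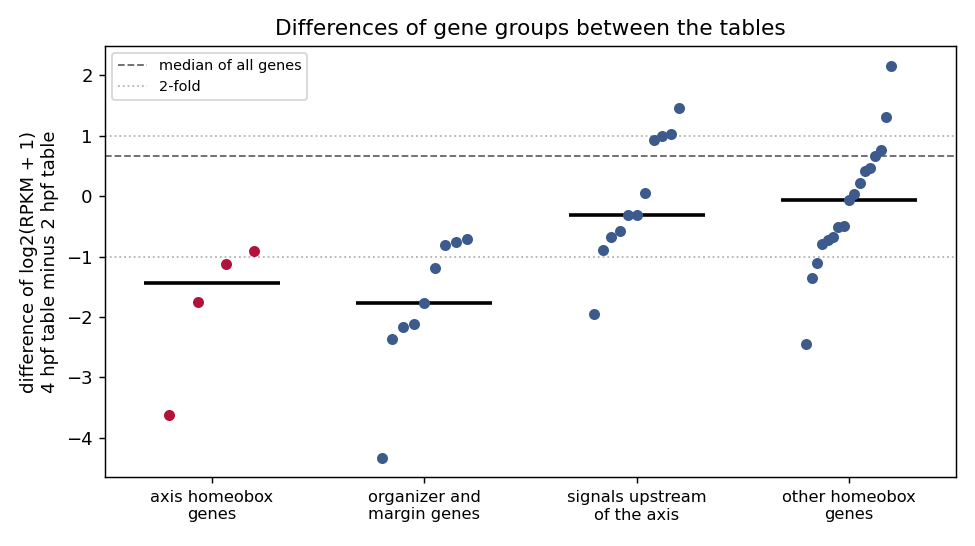
Difference of log2(RPKM + 1), 4 hpf minus 2 hpf, for each gene (point) that reached 1 RPKM in one table or the other in 4 gene groups, with the median of each group (black bar), the median of all genes (dashed, 0.66) and the 2-fold marks (dotted). All 4 axis homeobox genes and all 9 organizer and margin genes lie below 0, while the other homeobox genes spread from -2.44 to 2.16 around a median of -0.06 (0.34 with the sums made equal).

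Markers of particular cells also differed between the tables. For the enveloping layer, an epithelium that covers the blastula, 8 of 10 markers reached 1 RPKM, 6 were called lower in the 4 hpf table (10.9% of all genes were), and the summed level was 134 RPKM (2 hpf) and 32.2 RPKM (4 hpf). The keratin gene krt4 was at 17.8 and 0.356 RPKM. Differences of the 8 ran from -4.14 to -0.46, and 2 of them lay inside the 2-fold mark. Of these 8 markers, 6 reached 1 RPKM in the 2 hpf table alone, so the filter shaped their count. For the yolk syncytial layer, 5 of 7 markers reached 1 RPKM, 4 were called lower, and the sum was 36.8 and 3.58 RPKM, with 4 of the 5 over 1 RPKM in the 2 hpf table alone. The genes mxtx1 and mxtx2 are in both this list and that of the other homeobox genes, so the counts of these lists overlap. Germ plasm markers went the other way, with 5 of 8 called higher (33.0% of all genes were) and none lower and a sum of 96.7 and 407 RPKM, led by buc at 53.4 and 295 RPKM. The median difference of the germ plasm markers was 1.32, and from 0.42 to 0.74 under 3 of the 4 other scalings, against 0.66 over all genes as deposited and from -0.08 to 0.22 under those 3. None of the matched markers of these 3 lists was at 0 in either table. Of 16 markers of differentiated tissues, 10 were matched by exact symbol, and of these only the transferrin gene tfa reached 1 RPKM (2.10 and 0.258 RPKM). The search by shorter symbols added 4 entries. Of these, only TNNT3 (ENSDARG00000030270) reached 1 RPKM, at 0.249 RPKM (2 hpf) and 1.47 RPKM (4 hpf), the other way from tfa. The part of these cell types in the values of the axis homeobox genes was not tested.

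**Figure D4:**
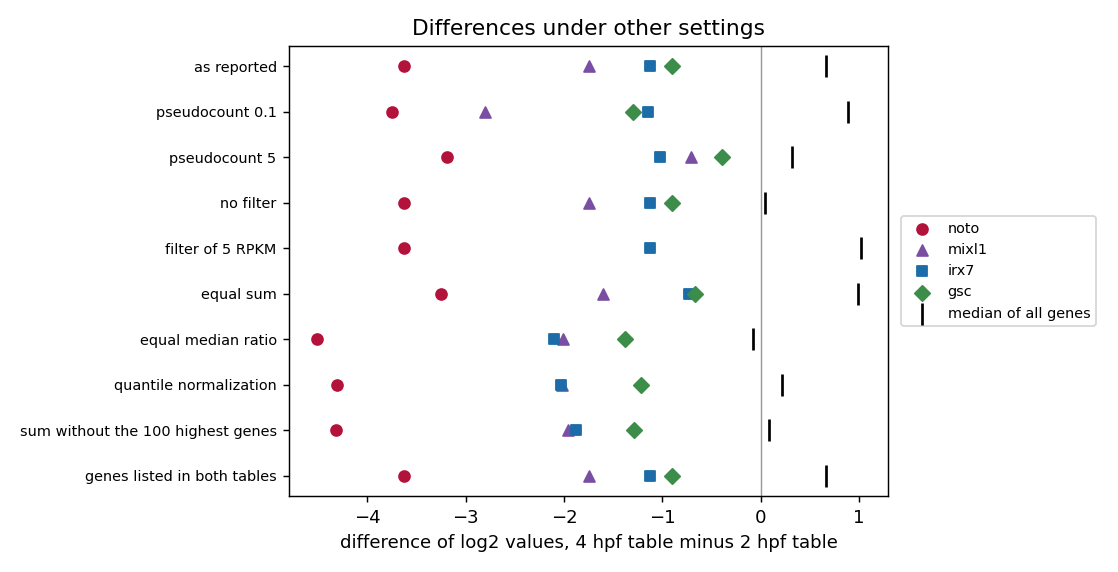
Difference of log2 values, 4 hpf table minus 2 hpf table, of the 4 axis homeobox genes that passed the filter under the reported setting and 9 others, with the median of all genes under each (black tick). A gene is missing where a filter of 5 RPKM removed it. Every point lies to the left of 0 and of the tick, with noto the lowest under each setting.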

How the data were processed

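RNA immunoprecipitates of 4 samples were sequenced, per the labels' protocols with a SMARTer small RNA kit. The deposited values are RPKM, 1 mean per gene and age, made by the authors; that they are means is taken from how the tables are named. Tools named in the submitters' processing notes, with no order or role, are TopHat2 2.1.1, Bowtie, Trimmomatic 0.36, cutadapt 1.13, bedtools 2.16.2 and MACS2 2.0.10, and the build named is Zv9. The annotation, the counter and the reads that form the denominator were not given in the sources used here. No genome, promoter or protein sequence was used here.

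Symbols came from a reference table, which named 20039 of 27205 IDs (73.7%). A gene in 1 table only was set to 0 in the other. Differences are log2(RPKM + 1), 4 hpf minus 2 hpf, for genes that reached 1 RPKM in one table or the other, called at an absolute value of 1 or more (2-fold), a scale that understates the change of low genes. The worth of a read was taken from the ratios of low genes between the tables. Both calculations were tested on simulated data. Python 3.11.15, numpy 2.4.6 and pandas 2.3.3 were used.

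Members and lists were chosen with earlier results of these data known. Named are all members, in each other list the 3 highest genes and the 3 with the largest absolute difference, and the 3 genes nearest to noto, not all of which are printed; the same was set for vox and vent, which were not matched. Exceptions are named as such. The values of 1 gene of the lists are not reported here, though counts include it. Alternatives were pseudocounts of 0.1 and 5, no filter and a filter of 5 RPKM, 4 scalings, genes listed in both tables and a 4-fold threshold. The hox genes as a floor and the search by shorter symbols were added after the data were seen.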

Additional observations from a re-analysis of the deposited data

How the results depend on the processing

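Limits are the single mean per age, the unknown absolute depth, the symbols that matched no row and the lack of an input. No paired analysis was possible because the files hold means only, and for that reason no replicate could be left out either. The differences of noto, irx7, mixl1 and gsc were below 0 and below the median of all genes under both other pseudocounts and all 4 other scalings. Filters, genes listed in both tables and the 4-fold threshold leave a gene's own difference as it is and do not bear on its sign. With a pseudocount of 5 the median of the axis homeobox genes was -0.87 and that of the organizer and margin genes -0.81, and the latter was also -0.81 without a filter. With a filter of 5 RPKM, 2 axis homeobox genes were left, and both lay 2-fold or more under the median of all genes. At a 4-fold threshold, 1 axis homeobox gene was called lower and 2 lay 4-fold under the all-gene median, while the group's own median of -1.43 did not reach 4-fold.

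Over all genes, 4409 were higher and 1452 lower as reported. These counts were 1907 and 371 with a pseudocount of 5, 6628 and 1199 with equal sums, and 347 and 2533 with an equal median ratio. They were 1369 and 2082 after quantile normalization, and 867 and 2197 without the 100 highest genes. A filter of 5 RPKM gave 3593 and 607, and a 4-fold threshold gave 291 and 342. The median of all genes was 0.99 with equal sums, 0.22 after quantile normalization, 0.09 without the 100 highest genes and -0.08 with an equal median ratio. The other homeobox genes had a median of 0.34 with equal sums and between -0.91 and -0.82 under the 3 other scalings. Higher and lower genes numbered 6088 and 2152 with a pseudocount of 0.1.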
